A study of Mus musculus with 8 samples.

Results

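Amino acid supply, the transcription factor ATF4 and the tRNA synthetases were followed in the mouse Sertoli cell line TTE3 through 41 genes. They comprise Atf4 with its partners and stress targets, enzymes of serine, glycine and folate metabolism, other amino acid enzymes, amino acid transporters, and cytosolic tRNA synthetases. Members were taken by symbol: every probe set (a group of short oligonucleotides against 1 transcript) whose platform annotation gave 1 of these symbols alone was used, and a synthetase symbol could carry a final 1. The array carried 39 of the 41 genes, on 79 probe sets, among 12393 genes with a probe set of their own. Mthfd1l and Pycr1 had no probe set that named them alone and were not analysed here. Of the 39 genes, 37 passed the filter on dim signals and were tested; Slc7a11 and Slc7a1 did not pass.

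TTE3 comes from a transgenic mouse whose transgene is the large T-antigen of simian virus 40 in a temperature-sensitive form. This viral protein keeps cells dividing at the permissive temperature and loses its activity at a higher one. Cells were held at the nonpermissive 39 °C for 0, 6, 12 or 24 h, and their total RNA was measured on Affymetrix arrays (Mouse Expression Array 430A), 8 in all, with 2 numbered samples at each time. All 8 samples came from the same line with the same transgene, so the groups differ in hours at 39 °C, and the temperature, the time in culture and the state of the T-antigen cannot be told apart. The labels leave unsaid whether both samples of a time were grown apart. The spread that p-values rest on may therefore be technical. In bulk RNA of this kind, fewer cells making a transcript and less of it per cell cannot be told apart.

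When amino acids run short or unfolded protein builds up, kinases phosphorylate the initiation factor eIF2. General translation then slows while ATF4 protein is made from mRNA already present. ATF4, paired with C/EBP family proteins, binds composite elements in the promoters of genes for amino acid synthesis, uptake and tRNA charging. Sertoli cells support germ cells with lactate, amino acids and growth factors. ATF4 protein, eIF2 phosphorylation and amino acid levels were not measured here.

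Signals were the intensities deposited for each array, all scaled to the same trimmed mean of about 500 units (500.179 to 500.204). A change in total mRNA per cell is therefore hidden, and every change is relative to the other transcripts. Median signals ran from 138 units in a 0 h sample to 154 in a 24 h sample, and the correlation between the samples of a time ran from 0.982 to 0.990 over probe sets. Fold changes come from log2(signal + 21.9), which understates the change of dim genes, and are given with the standard error (SE) of a limma fit over all 8 arrays (n = 2 per time). "Called" means an adjusted p below 0.05 after Benjamini-Hochberg adjustment over all 13576 tested probe sets. Of 19 Sertoli cell markers, 17 were on the array and 10 passed the filter, among them Vim, Krt18, Clu, Kitl and Gata4. Amh, Fshr, Dhh, Rhox5, Cldn11, Gdnf and Dmrt1 did not pass. At 24 h Clu (log2 change 1.44, adjusted p = 3.63e-05) and Inhbb (0.51, adjusted p = 0.0188) were called higher, and the other Sertoli markers that passed were not called. Of the markers of other testis cells, 1 of 5 on the array for Leydig cells passed, 2 of 6 for myoid cells, 3 of 6 for macrophages and blood cells and 0 of 5 for endothelial cells. Among 9 germ cell markers Kit alone passed, going from 253 and 349 units at 0 h to 1225 and 1222 at 24 h (adjusted p = 1.36e-05). The summed signal of the other 8, Ddx4, Dazl and Sycp3 among them, was 216 to 251 units at 0 h and 236 to 239 at 24 h. The Leydig cell marker Star (log2 change 1.18, adjusted p = 0.00327) and the macrophage marker Cd68 (0.59, adjusted p = 0.0306) were also called higher at 24 h. The other tested macrophage and blood cell markers, Csf1r (-0.38, adjusted p = 0.172) and Cd14 (-0.13, adjusted p = 0.693), were not called then. The part of these markers in the changes below was not tested.

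After 24 h at 39 °C more members were called lower than higher: 16 of the 37 tested genes were lower than at 0 h (43.2%), 6 were higher (16.2%) and 15 were not called. Over all 7707 tested genes, 16.6% were called lower and 18.6% higher in that comparison. The genes that fell included the serine synthesis enzymes Phgdh, Psph and Psat1, the mitochondrial Shmt2, asparagine synthetase, the leucine transporter subunits Slc7a5 and Slc3a2 and 4 tRNA synthetases. Those that rose were Nupr1, Slc1a4, Cth, Ddit3, Cebpg and Slc38a2. The median change of the members at 24 h was -0.25 on the log2 scale, against 0.02 over all tested genes. At 6 h, 5 members were called higher (13.5%) and 4 lower (10.8%), against 9.15% and 9.33% of all tested genes, which is near the background.

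At 12 h, 4 members were called higher (10.8%) and 7 lower (18.9%), where all tested genes gave 13.3% and 12.0%. Between 6 and 12 h, 2 members rose (5.41%) and 9 fell (24.3%), beside 4.93% and 3.58% of all genes. Between 12 and 24 h limma called 0 members higher (3 at an unadjusted p below 0.05) and 7 lower (18.9%), beside 4.09% and 3.27% of all genes. The step from 6 to 12 h shares its 6 h arrays with the comparison of 6 h against 0 h, and the other comparisons likewise share arrays, so the counts are given side by side only. Over all 4 times, 21 of 37 members were called by the F-test (56.8%), against 42.0% of all tested genes.

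**Figure D1:**
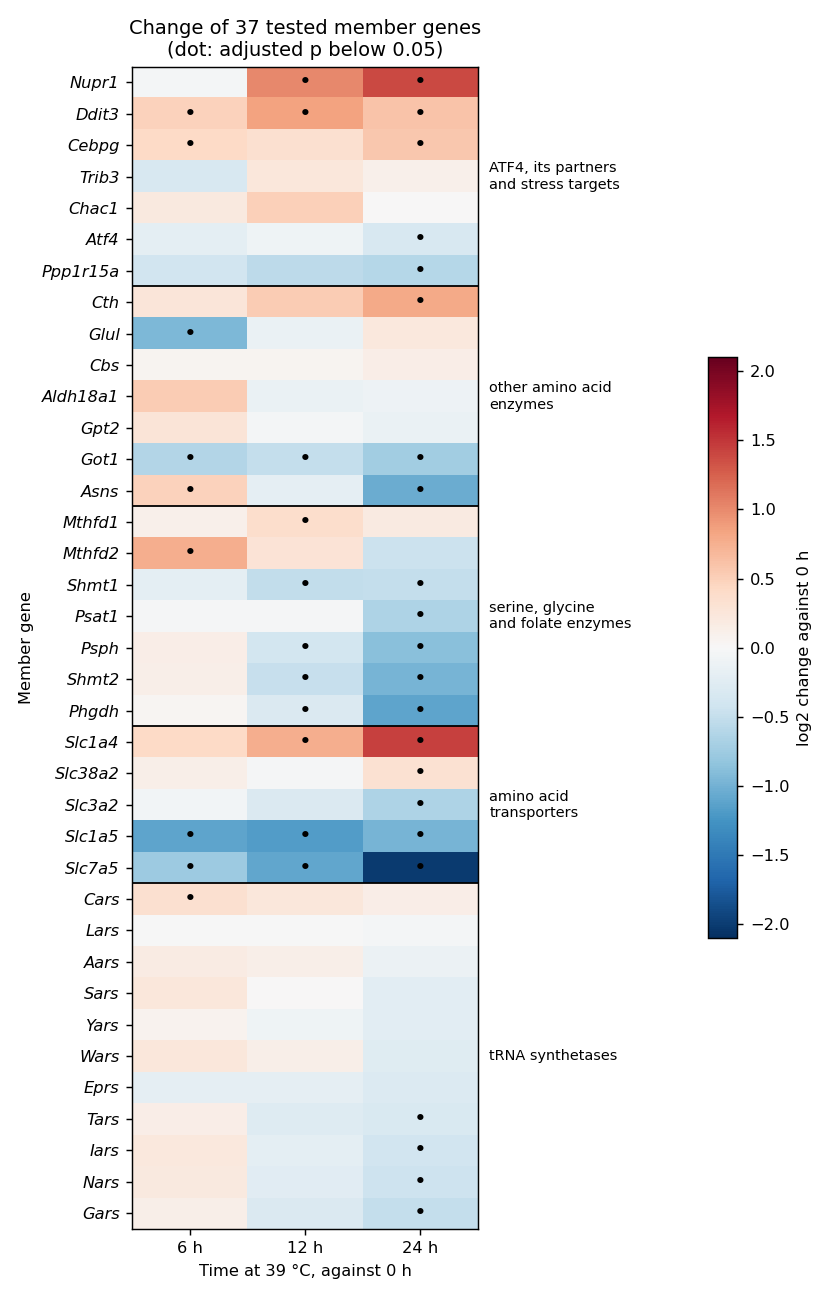
Heat map of the log2 change against 0 h (colour, red higher and blue lower) of the 37 tested members at 6, 12 and 24 h at 39 °C, in rows grouped by role, with a dot where the adjusted p was below 0.05. At 24 h, 16 genes carry a dot in blue and 6 in red, and the deepest blue is Slc7a5 at -2.01.

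**Figure D2:**
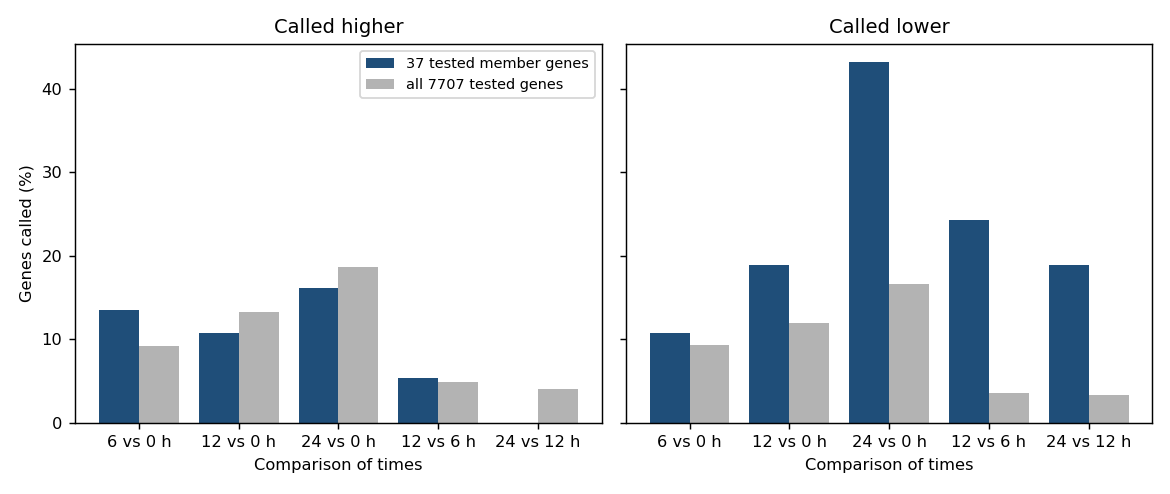
Percent of genes called higher (left) and lower (right) in each comparison of times, for the 37 tested members (dark bars) and all 7707 tested genes (grey bars). The dark bars for lower calls reach 43.2% at 24 h against 0 h and 24.3% at 12 h against 6 h, where the grey bars stand at 16.6% and 3.58%.

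The promoters of the members are shown because the composite element bound by ATF4 with a C/EBP partner has the core TGATGNAA. It was searched on both strands of the RefSeq windows (GRCm38.p6) from 250 bases before to 50 bases after each annotated start, and only the bases before the start are shown. A match stood before the start in 9 of 36 member windows (25%), and in 1134 of all 32851 windows (3.45%). The member windows with a match belonged to 9 of the 34 genes that have a window. The list includes known ATF4 targets such as Asns, so a higher share among members follows partly from how it was drawn up. It is not a result of these data. The E-box CACGTG, searched the same way, stood in 5 member windows (13.9%, Nupr1, Aars, Iars, Cbs and Aldh18a1) and in 6.02% of all. Cars, Cth, Lars, Nars, Slc1a5, Slc7a5 and Wars had no window in the table. The genes with a core were Asns, Nupr1, Got1, Gars, Tars, Aars, Chac1, Slc7a11 and Pycr1. Each line below reads 5′ to 3′ on the strand of its gene and ends at or before the start, with the core in capitals (TTGCATCA and TTTCATCA are the core on the opposite strand).

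Asns, chr6:7693210-7693258, minus strand: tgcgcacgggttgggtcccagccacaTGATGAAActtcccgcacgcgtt
Chac1, chr2:119351023-119351082, plus strand: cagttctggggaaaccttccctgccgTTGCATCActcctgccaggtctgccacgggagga
Slc7a11, chr3:50443646-50443705, minus strand: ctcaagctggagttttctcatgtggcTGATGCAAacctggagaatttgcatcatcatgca
Nupr1, chr7:126625547-126625606, minus strand: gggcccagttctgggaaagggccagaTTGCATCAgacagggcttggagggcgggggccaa
Aars, chr8:111033704-111033763, plus strand: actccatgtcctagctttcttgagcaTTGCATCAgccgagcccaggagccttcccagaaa
Gars, chr6:55037945-55038000, plus strand: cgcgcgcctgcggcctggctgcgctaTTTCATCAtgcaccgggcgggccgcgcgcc
Tars, chr15:11399659-11399699, minus strand: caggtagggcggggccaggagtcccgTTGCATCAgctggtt
Got1, chr19:43524674-43524733, minus strand: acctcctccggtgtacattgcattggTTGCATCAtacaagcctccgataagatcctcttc

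Slc7a11 held a core on each strand, and the line marks the one farther from the start. The genes with a core did not share a course. Nupr1 rose, Got1 fell at all times, Asns was higher at 6 h and lower at 24 h, and Gars and Tars were lower at 24 h, with values given below. Aars and Chac1 were not called at any time on their brightest probe sets. A match describes letters in a window and does not show binding.

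Among ATF4 and its partners, the transcripts of the stress genes Ddit3, Cebpg and Nupr1 rose while that of Atf4 itself did not. Of 7 tested genes in this group, 2 were called higher at 6 h (28.6%), 2 at 12 h (28.6%) and 3 at 24 h (42.9%). Over all tested genes these shares were 9.15%, 13.3% and 18.6%. At 24 h, 2 genes of the group were lower (28.6%), against 16.6% of all tested genes. The signal of Atf4 was 2847 and 2526 units at 0 h, 2273 and 2384 at 6 h, 2532 and 2505 at 12 h and 2135 and 2109 at 24 h. The 24 h samples were the lowest pair. The fall at 24 h was 1.26-fold (log2 -0.33 ± 0.09 SE, adjusted p = 0.0191), and the changes at 6 h (-0.20, adjusted p = 0.165) and 12 h (-0.09, adjusted p = 0.535) were not called. A second, dimmer Atf4 probe set changed by -0.08 at 24 h and was not called. The 24 h call on Atf4 ended when 0 h replicate 1 was left out (adjusted p = 0.189), or either 24 h array (0.0844 and 0.102), and with the median over its probe sets (0.116). Since ATF4 is controlled largely at translation, the mRNA level does not give the protein level.

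Ddit3 encodes CHOP, a C/EBP-related factor induced downstream of ATF4 and linked to stress-induced cell death. Its signal was 612 and 614 units at 0 h, 820.0 and 916 at 6 h, 1120.1 and 1108 at 12 h and 1011 and 879.5 at 24 h. Every sample at 39 °C for 6 h or more stood above both 0 h samples, and the 12 h pair was highest. The rise was 1.40-fold at 6 h (log2 0.49 ± 0.11, adjusted p = 0.0129), 1.79-fold at 12 h (0.84 ± 0.11, adjusted p = 0.000442) and 1.52-fold at 24 h (0.60 ± 0.11, adjusted p = 0.00183). Cebpg encodes a C/EBP protein that dimerises with ATF4. It went from 393 ± 2.19 units (SD, n = 2) at 0 h to 533 at 6 h and 589 ± 45.3 at 24 h. Its rise was called at 6 h (0.42 ± 0.12, adjusted p = 0.0278) and at 24 h (1.47-fold, 0.56 ± 0.12, adjusted p = 0.00361). The 6 h calls of both genes ended without 0 h replicate 1 (adjusted p = 0.0876 for Ddit3 and 0.134 for Cebpg) or 0 h replicate 2 (0.0824 and 0.138), and that of Cebpg also ended without 6 h replicate 1 (0.0697).

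Nupr1, a small stress-inducible chromatin protein, had the largest rise of this group. Its signal was 198 and 171 units at 0 h, 219.5 and 146 at 6 h, 379 and 412 at 12 h and 543 and 492 at 24 h. The 0 h and 6 h samples overlapped, and both later pairs stood above all of them. It rose 2.02-fold by 12 h (log2 1.02 ± 0.18, adjusted p = 0.00206) and 2.61-fold by 24 h (1.39 ± 0.18, adjusted p = 0.000175). A second probe set rose by 1.98 on the log2 scale at 24 h. The step from 6 to 12 h was 2.07-fold (adjusted p = 0.00666), a call that ended without 12 h replicate 2 (0.0511).

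The other members of this group did not follow. Trib3, a pseudokinase that feeds back on ATF4 and CHOP, read 128 and 158 units at 0 h, 99.1 and 117 at 6 h, 164 and 179.8 at 12 h and 149 and 162 at 24 h, and its changes were not called (F-test adjusted p = 0.104). Chac1, which degrades glutathione, read 156 and 152 units at 0 h, 203 and 160.4 at 6 h, 263 and 194 at 12 h and 148 and 163 at 24 h. Its 12 h samples were the highest pair but overlapped the 6 h range, and the 12 h change (0.49 ± 0.19) was not called (adjusted p = 0.0835). Ppp1r15a encodes GADD34, the phosphatase subunit that reverses eIF2 phosphorylation. Its mean signal was 442 units at 0 h, then 328, 299 and 289 at the later times, and it was called lower at 24 h (-0.59 ± 0.18, adjusted p = 0.029). That call ended without 0 h replicate 1 (0.0745), 0 h replicate 2 (0.168) or 24 h replicate 1 (0.249).

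**Figure D3:**
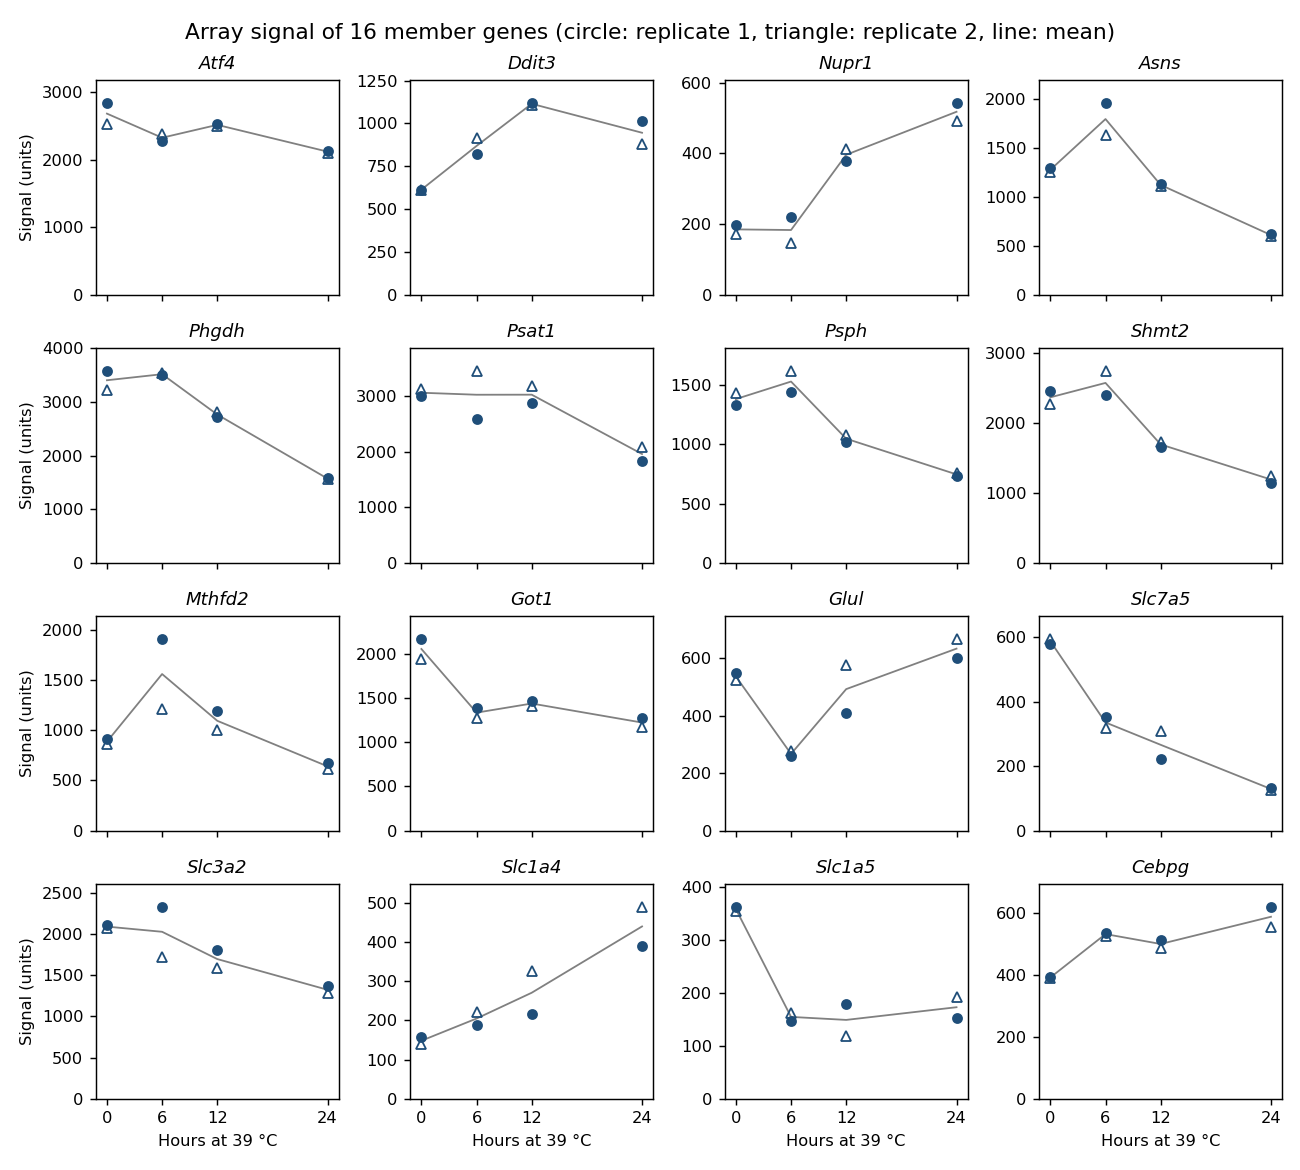
Array signal (units, linear axis from 0) against hours at 39 °C for 16 members, with 1 circle (replicate 1) and 1 triangle (replicate 2) per time and a line through the means. Nupr1 and Slc1a4 climb to their highest signals at 24 h, Asns and Mthfd2 peak at 6 h, and Slc7a5 ends at 125 to 134 units from 580 to 595.

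The serine, glycine and folate group was largely lower by 24 h. Of 7 tested genes, 5 were called lower by limma (71.4%) and 0 higher (also 0 at an unadjusted p below 0.05). Over all tested genes, 16.6% were called lower and 18.6% higher. The median change of the group was -0.64, against 0.02 over all tested genes. Phgdh, Psat1 and Psph are the successive enzymes that make serine from a glycolytic intermediate. Phgdh, the committing step, read 3582 and 3229 units at 0 h, 3495 and 3543 at 6 h, 2719.9 and 2812 at 12 h and 1579 and 1562 at 24 h. The 0 h and 6 h ranges overlapped, the 12 h pair was below them and the 24 h pair lower again. The fall was 2.15-fold at 24 h (log2 -1.10 ± 0.09, adjusted p = 9.55e-06), of which -0.81 ± 0.09 came after 12 h (adjusted p = 0.00122). The smaller fall at 12 h (-0.30, adjusted p = 0.0372) was lost without 0 h replicate 1 (0.275), 0 h replicate 2 (0.0758) or any single array of 12 or 24 h (0.064 to 0.143). Of its 4 probe sets, 3 were called lower at 24 h and 1 was not (-0.09).

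Psat1, the transaminase of the pathway, read 2999.8 and 3118 units at 0 h, 2592 and 3454 at 6 h, 2870.0 and 3178 at 12 h and 1829 and 2084 at 24 h. The 6 h samples lay far apart and covered both the 0 h and 12 h ranges, and the 24 h samples were below all others. The fall at 24 h was 1.56-fold (-0.64 ± 0.13, adjusted p = 0.00349). Psph, the phosphatase that completes serine, read 1331 and 1436 units at 0 h, 1439.9 and 1622 at 6 h, 1019 and 1076 at 12 h and 734 and 759.5 at 24 h. All 4 samples of 12 and 24 h were below all 4 of 0 and 6 h, and the 24 h pair was lowest. It fell by 0.39 at 12 h on the log2 scale (adjusted p = 0.0192) and 1.83-fold at 24 h (-0.87 ± 0.10, adjusted p = 0.000112). Without 0 h replicate 1 or 2, or 12 h replicate 1 or 2, the 12 h call on Psph was lost (adjusted p = 0.0524 to 0.149).

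Shmt2, the mitochondrial enzyme that turns serine into glycine and a folate-bound carbon unit, read 2462 and 2269 units at 0 h, 2399 and 2745 at 6 h, 1655 and 1729 at 12 h and 1137 and 1244 at 24 h. Its course was like that of Psph, with both 12 h samples below every earlier sample and both 24 h samples below those. It fell by 0.48 at 12 h (adjusted p = 0.00736; 0.0839 without 0 h replicate 1) and 1.97-fold at 24 h (-0.98 ± 0.10, adjusted p = 5.1e-05). All 4 Shmt2 probe sets were called lower at 24 h (-0.57 to -1.10), and the dimmest was called higher at 6 h (0.97), where the brightest changed by 0.12. The cytosolic Shmt1 was called lower at 12 h (-0.52, adjusted p = 0.0129) and 24 h (-0.50, adjusted p = 0.0115) on its brightest probe set. Its 4 probe sets disagreed at 24 h, from -0.50 to 0.17, and with their median neither change was called (adjusted p = 0.87 and 0.199). Both Shmt1 calls also ended without any single array of 0 h or of the later time (adjusted p = 0.0502 to 0.0969).

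Mthfd2, the mitochondrial folate dehydrogenase, went up first and down later. It read 909 and 864 units at 0 h, 1909 and 1209 at 6 h, 1187 and 1000.2 at 12 h and 670.1 and 612 at 24 h. Both 6 h samples were above every other sample, but they differed from each other by more than any other pair, and the 24 h pair was lowest. The rise at 6 h was 1.70-fold (0.76 ± 0.18, adjusted p = 0.0135), a call that ended without 0 h replicate 1 (0.0733), 0 h replicate 2 (0.0921) or 6 h replicate 1 (0.0515). From 12 to 24 h it fell by 0.75 (adjusted p = 0.031), and against 0 h the 24 h value was not called (-0.46 ± 0.18, adjusted p = 0.0709), although its other probe set was (-0.55). The cytosolic Mthfd1 was the exception of the group: its mean signal was 1400.0 units at 0 h and 1825 at 12 h, called higher then (0.38, adjusted p = 0.0224) and not at 24 h (0.19, adjusted p = 0.196). That call ended without 0 h replicate 1 (0.158), 0 h replicate 2 (0.0811) or 12 h replicate 2 (0.132), and 2 further Mthfd1 probe sets were not called.

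In the step from 12 to 24 h, 5 of the 7 genes were called lower (71.4%), against 3.27% of all tested genes. They were Phgdh (-0.81), Mthfd2 (-0.75), Psat1 (-0.62), Shmt2 (-0.50) and Psph (-0.48). Shmt1 changed by 0.02 in that step and was not called. Over the alternatives the called falls kept their direction, from -0.46 to -0.72 for Psat1 and from -0.44 to -0.52 for Psph. Shmt2 ran from -0.33 to -0.56 and Mthfd2 from -0.63 to -0.87. Most of the calls, though, ended in fits with 1 array left out, which rest on fewer samples. The Phgdh call held in every alternative tried. Those of Psat1, Psph, Shmt2 and Mthfd2 each ended without 12 h replicate 1, 12 h replicate 2, 24 h replicate 1 or 24 h replicate 2 (adjusted p = 0.06 to 0.201), and those of Psph (0.0508 and 0.0507) and Mthfd2 (0.061 and 0.0598) also ended without 0 h replicate 1 or 2. Between 6 and 12 h, Phgdh (-0.35), Psph (-0.54) and Shmt2 (-0.60) were called lower (42.9% of the 7, against 3.58% of all tested genes). The Phgdh step was lost without any 1 of the 8 arrays (adjusted p = 0.0528 to 0.149), and the Psph step without either 12 h array (0.067 and 0.0519).

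Of the other amino acid enzymes, Asns, Got1 and Glul moved on different courses. Asns makes asparagine from aspartate and glutamine and is a classic ATF4 target, with the core near its start shown above. It read 1294 and 1258 units at 0 h, 1960.4 and 1628 at 6 h, 1132 and 1111 at 12 h and 624 and 595 at 24 h. The 6 h samples were above all others, and the 24 h samples were lowest by a wide margin. It rose 1.39-fold at 6 h (0.48 ± 0.11, adjusted p = 0.0133), was not called at 12 h (-0.18, adjusted p = 0.259) and fell 2.06-fold at 24 h (-1.04 ± 0.11, adjusted p = 4.9e-05). The 6 h call ended without 0 h replicate 1 (0.0807), 0 h replicate 2 (0.097) or 6 h replicate 1 (0.057). Both steps down, from 6 to 12 h (-0.66 ± 0.11, adjusted p = 0.00636) and from 12 to 24 h (-0.86 ± 0.11, adjusted p = 0.00196), were called in every alternative tried.

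Got1, the cytosolic aspartate transaminase, fell at once and stayed low. It read 2168 and 1939 units at 0 h, 1389.7 and 1278 at 6 h, 1467 and 1408 at 12 h and 1269.8 and 1174 at 24 h. Both 0 h samples stood above all 6 later ones. The fall was 1.53-fold at 6 h (-0.61 ± 0.10, adjusted p = 0.0026), 0.51 on the log2 scale at 12 h (adjusted p = 0.00502; 0.0704 without 0 h replicate 1) and 1.67-fold at 24 h (-0.74 ± 0.10, adjusted p = 0.000306). Glul, glutamine synthetase, dipped and came back. It read 548 and 527 units at 0 h, 259 and 276 at 6 h, 409.9 and 576 at 12 h and 600.2 and 668 at 24 h. Both 6 h samples were below all others, and the 12 h range covered that of 0 h. The fall at 6 h was 1.93-fold (-0.95 ± 0.15, adjusted p = 0.00218), the return from 6 to 12 h was 1.76-fold (0.81 ± 0.15, adjusted p = 0.0116; 0.075 without 12 h replicate 2), and the 24 h value was not called against 0 h (0.23, adjusted p = 0.291).

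Cth, which makes cysteine from cystathionine, was dim, with a mean of 55.6 units at 0 h and 112 ± 0.778 (SD, n = 2) at 24 h. It was called higher at 24 h (0.79 ± 0.25, adjusted p = 0.0313), but not without either 0 h array (0.112 and 0.115), without either 24 h array (0.122 and 0.131), or with quantile normalization (0.0662) or median centring (0.0541) of the arrays. Aldh18a1, the first enzyme of proline synthesis, went from a mean of 422 units at 0 h to 632 at 6 h, which was not called (0.54 ± 0.18, adjusted p = 0.0561). It was called lower from 6 to 12 h (-0.68, adjusted p = 0.0389), a call lost without any 1 array other than 6 h replicate 1 (adjusted p up to 0.128). Gpt2 and Cbs, a mitochondrial alanine transaminase and the enzyme upstream of Cth, were not called at any time, with means between 105 and 148 units.

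Of 5 tested transporters, 2 were called higher and 3 lower at 24 h, beside 18.6% and 16.6% of all tested genes. Slc7a5 (LAT1) and Slc3a2 (4F2hc, its heavy chain) form the exchanger that brings in leucine and other large neutral amino acids, and both fell. Slc7a5 read 580.1 and 595 units at 0 h, 352 and 319.9 at 6 h, 223 and 309.8 at 12 h and 134 and 125 at 24 h. The times formed a descending series in which no 2 pairs overlapped. The fall was 0.77 ± 0.16 on the log2 scale at 6 h (adjusted p = 0.00836), 2.14-fold at 12 h (-1.10 ± 0.16, adjusted p = 0.000803) and 4.03-fold at 24 h (-2.01 ± 0.16, adjusted p = 7.39e-06). The 24 h change was the largest of any tested member. The 6 h call was lost without 0 h replicate 1 (0.0625) or 0 h replicate 2 (0.0686), and the step from 12 to 24 h (-0.91, adjusted p = 0.00959) without 12 h replicate 2, 24 h replicate 1 or 24 h replicate 2 (0.0649 to 0.0919).

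Slc3a2, which also serves other light chains, read 2104 and 2076 units at 0 h, 2329.5 and 1725 at 6 h, 1808 and 1585 at 12 h and 1366 and 1281 at 24 h. The 6 h samples lay on either side of the 0 h pair, and the 24 h samples were lowest. It was called at 24 h, 1.57-fold lower (-0.65 ± 0.13, adjusted p = 0.00352), and not at 6 or 12 h. Slc7a11, the cystine exchanger that pairs with the same heavy chain, was not tested because it was too dim, with signals of 47.0 and 36.2 units at 0 h, 41.1 and 36.6 at 6 h, 43.5 and 23.7 at 12 h and 26.3 and 33.9 at 24 h. Slc7a1, the cationic amino acid transporter, was likewise below the filter, at 40.3 to 95.5 units.

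Slc1a4 and Slc1a5, sodium-coupled carriers of small neutral amino acids from the same gene family, went in opposite directions. Slc1a4 (ASCT1), which carries serine, alanine and cysteine, read 158 and 139 units at 0 h, 189.5 and 220.5 at 6 h, 216 and 326 at 12 h and 390.2 and 490.2 at 24 h. Every later sample was above both 0 h samples, and the 24 h pair was highest. It rose by 0.76 ± 0.20 at 12 h (adjusted p = 0.0175) and 2.70-fold at 24 h (1.43 ± 0.20, adjusted p = 0.000284), with all 3 of its probe sets between 1.37 and 1.43 on the log2 scale at 24 h. The 12 h call ended without 0 h replicate 1 (0.0618), 0 h replicate 2 (0.114) or 12 h replicate 2 (0.14).

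Slc1a5 (ASCT2), the glutamine carrier, read 363 and 354 units at 0 h, 147 and 163 at 6 h, 180.1 and 118 at 12 h and 153 and 193 at 24 h. Both 0 h samples were above all 6 others by a wide gap, and the later times overlapped. It fell 2.15-fold at 6 h (-1.11 ± 0.20, adjusted p = 0.00383), 2.26-fold at 12 h (-1.18 ± 0.20, adjusted p = 0.00172) and 1.96-fold at 24 h (-0.97 ± 0.20, adjusted p = 0.00341). All 3 calls held in every alternative that tested Slc1a5, which a stricter filter left out. Slc38a2 (SNAT2), a carrier of small neutral amino acids known to be induced by amino acid shortage, had a mean of 2757 units at 0 h and 3448 at 24 h. That rise was called (0.32 ± 0.10, adjusted p = 0.0324) but not with the arrays centred on their medians (0.22, adjusted p = 0.177) or without any single array of 0 or 24 h (0.0639 to 0.234).

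The tRNA synthetases charge each tRNA with its amino acid, and those among the members moved little on their brightest probe sets. At 24 h, 4 of the 11 tested members were called lower by limma (36.4%) and 0 higher (also 0 at an unadjusted p below 0.05). Over all tested genes, 16.6% were called lower and 18.6% higher. The median log2 change of the 11 was -0.25, against 0.02 over all tested genes. Gars (glycine) went from a mean of 2148 ± 87.6 units at 0 h to 1520.0 ± 34.4 at 24 h (log2 -0.49 ± 0.12, adjusted p = 0.00867). Nars (asparagine) went from 2840.0 ± 14.0 to 2100.0 ± 2.26 (-0.43 ± 0.12, adjusted p = 0.0182), Iars (isoleucine) from 1200.0 ± 95.0 to 896 ± 11 (-0.41 ± 0.10, adjusted p = 0.0115) and Tars (threonine) from 1862 ± 107 to 1484 ± 148 (-0.32 ± 0.11, adjusted p = 0.042). In each of these 4, picked because they were called lower, the 24 h samples were below both 0 h samples.

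These 4 falls were small, and none held in every alternative. That of Gars ended without 0 h replicate 2 (0.0731) or 24 h replicate 1 (0.0602), that of Iars without 0 h replicate 2 (0.117) or either 24 h array (0.0712 and 0.0596), and that of Nars without any 1 array of 0 or 24 h (0.0844 to 0.0939). That of Tars ended without any 1 array of 0, 12 or 24 h (0.0515 to 0.288). The second probe sets of Iars (-0.56) and Nars (-0.55) were also called lower. At 6 h the values leaned the other way, with a median of 0.17 against 0.01 over all tested genes. Cars (cysteine) was the 1 gene called (0.33 ± 0.10, adjusted p = 0.0436), 9.09% of the 11, where 9.15% of all tested genes were called higher. Its call was lost without any 1 array other than 6 h replicate 2.

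The steps from 6 to 12 h of Gars (-0.43), Iars (-0.43), Nars (-0.43) and Tars (-0.40) were called at adjusted p values from 0.0311 up to the threshold of 0.05, and each was lost without any single array of 0, 12 or 24 h (0.0551 to 0.235). The synthetases for alanine (Aars), leucine (Lars), serine (Sars), tryptophan (Wars), tyrosine (Yars) and for glutamate and proline together (Eprs) were not called at 24 h, with log2 changes from -0.28 to -0.03. Their probe sets differed: another probe set was called lower at 24 h for Eprs (-0.52), Sars (-0.32) and Wars (-0.48), and another Aars probe set was called higher at 6 h (0.42).

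**Figure D4:**
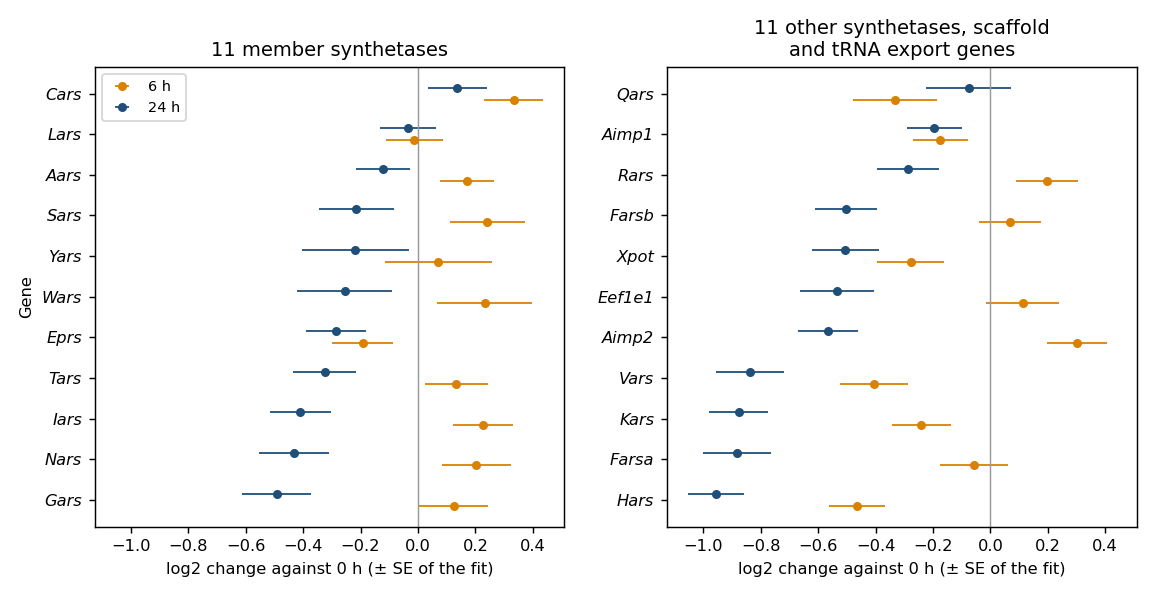
Log2 change against 0 h (points, with the SE of the fit as bars) at 6 h (orange) and 24 h (blue) for the 11 tested member synthetases (left) and 11 other cytosolic synthetases, scaffold and tRNA export genes (right). The blue points on the left run from -0.49 for Gars to 0.14 for Cars, and those on the right reach -0.95 for Hars.

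The synthetase list of the members is not the whole family. Among 13 further cytosolic synthetases, scaffold proteins of the multi-synthetase complex and the tRNA exporter, 11 were tested. At 24 h, 8 of them were called lower by limma and 0 higher (also 0 at an unadjusted p below 0.05), with a median of -0.53. Of all 7707 tested genes, 16.6% were called lower and 18.6% higher at 24 h. The largest falls were those of the histidine enzyme Hars (-0.95, adjusted p = 3.62e-05), the phenylalanine subunit Farsa (-0.88, adjusted p = 0.000231) and the lysine enzyme Kars (-0.88, adjusted p = 9.16e-05). At 6 h, 2 of the 11 were called lower and 0 higher (1 at an unadjusted p below 0.05), beside 9.33% and 9.15% of all tested genes. Of 8 tested mitochondrial synthetases, 1 was called lower at 24 h, no more than the share over all tested genes. It was Iars2 (-0.89, adjusted p = 0.00188), which was also lower at 6 h (-1.05) and 12 h (-1.30). Whether these lists differ from the members was not tested.

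Other genes of the pathway were counted in the same fit, where 18.6% of all 7707 tested genes were called higher and 16.6% lower at 24 h. Among 13 tested genes for eIF2, its kinases, exchange factor and phosphatases, 1 was called higher and 4 lower at 24 h. The 1 that rose was Eif2ak3, the kinase PERK of the endoplasmic reticulum (0.41 at 6 h, 0.43 at 12 h and 0.57 at 24 h, adjusted p = 0.0369, 0.0256 and 0.0041), and the deepest fall at 24 h was that of the eIF2 subunit Eif2s2 (-0.60, adjusted p = 0.000661). Eif2ak2, the RNA-activated kinase PKR, was lower at 6 h (-0.63, adjusted p = 0.0251). Among 15 tested other known ATF4 targets and partners, 6 were called higher and 2 lower at 24 h. The largest rises were those of Ddit4 (REDD1), an inhibitor of mTORC1 (1.78 at 6 h, 2.13 at 12 h and 2.97 at 24 h, adjusted p = 7.3e-08 at 24 h), Klhl24 (1.51 at 24 h, adjusted p = 2.47e-05) and Sesn2, a leucine-sensing inhibitor of mTORC1 (1.38 at 24 h, adjusted p = 0.00296). Several of these genes have other known inducers besides ATF4.

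Of 6 tested other amino acid transporters, 1 was higher and 1 lower at 24 h, the latter being the taurine carrier Slc6a6 (-0.86, adjusted p = 0.000219). These counts are near the shares of all tested genes at 24 h, 18.6% higher and 16.6% lower. Of 13 tested other amino acid and folate enzymes, 2 were higher and 4 lower at 24 h. Gcsh, of the glycine cleavage system, was lower then (-0.92, adjusted p = 0.00327), Gpt, an alanine transaminase, was higher at 12 h (0.82, adjusted p = 0.000979), and Bckdha, of branched-chain amino acid breakdown, was lower at 6 h (-1.12, adjusted p = 0.00187) and not called at 12 or 24 h.

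Of the 60 calls made on members over the 5 comparisons of times, 23 held in every alternative that tested the gene. They comprise 13 of the 22 calls at 24 h against 0 h, 3 of the 9 at 6 h (Got1, Glul and Slc1a5) and 4 of the 11 at 12 h (Ddit3, Nupr1, Slc7a5 and Slc1a5). They also comprise 1 of the 11 from 6 to 12 h (Asns) and 2 of the 7 from 12 to 24 h (Asns and Phgdh). The 13 at 24 h were Ddit3, Cebpg, Nupr1 and Slc1a4, all higher, and Asns, Phgdh, Psat1, Psph, Shmt2, Got1, Slc7a5, Slc3a2 and Slc1a5, all lower. Slc1a4 and Slc1a5 were not tested under the stricter filter, which left 30 of the 37 members, so their calls rest on the other alternatives. Without either 0 h array, all 5 rises at 6 h were lost. With the arrays centred on their medians, 4 members were higher and 18 lower at 24 h, and 37.5% of all called probe sets were higher in place of 52% (40.4% in place of 50.5% at 12 h, and 42.2% in place of 54.8% from 12 to 24 h).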

How the data were processed

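Total RNA of 8 samples (2 per time) was hybridised to 1 array each. The deposited values are intensities, 1 per probe set and array, on a linear scale from 0.1 to 38130.2. Which software the authors used for these intensities is not given in the sources used here. Judged by the values, each array was scaled to a common trimmed mean. With 2 arrays per time, the estimate of the spread rests on few samples.

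Of 22690 probe sets, 64 controls were left out. Of the other 22626, 20380 had 1 gene symbol in the platform annotation, 691 several and 1555 none, and 2 with several symbols, a member among them, were not used. From the deposited intensities, log2(intensity + 21.9) was computed (offset: their 20th percentile), and the 13576 probe sets with a mean log2 value of at least 6.58 (40th percentile) entered 1 model of 4 groups without a block in R 4.3.3 (limma 3.58.1, moderated tests with a variance trend), 2-sided, with 4 residual degrees of freedom. The code was tested on simulated data. Each gene was represented by its brightest tested probe set.

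Values on all arrays are given for members called by the F-test with a change of at least 1.5-fold against 0 h, and for Atf4, Ddit3, Trib3, Chac1, Asns, Slc7a5 and Slc7a11; of other pathway lists at most 3 called genes with the largest changes are named. The members and lists were chosen with earlier results of these data known. Alternatives were another offset, filter, scaling or normalization, the median over a gene's probe sets, no variance trend, only the 2 times compared, a replicate block, and each array left out.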

Additional observations from a re-analysis of the deposited data

How the results depend on the processing

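No call on a member reversed under any of the alternatives tried. Counts fell most in the steps between later times. Without a filter, 644 probe sets and 6 members changed from 6 to 12 h and 529 probe sets from 12 to 24 h, against 1130, 11 and 934 in the reported fit; without a variance trend the same counts were 606, 5 and 369, with 3 members from 12 to 24 h in place of 7. With only the 2 times compared, 240 probe sets and 2 members changed from 6 to 12 h. The same kind of fit gave 1240 probe sets from 12 to 24 h and 5797 at 24 h against 0 h, more than the reported 934 and 4472. The cause was not tested.

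Leaving out 1 array at a time gave 3301 to 6604 probe sets and 17 to 25 members by the F-test (5447 and 21 with all arrays). It gave 835 to 2998 and 3 to 10 at 6 h (2441 and 9), 1519 to 4147 and 4 to 16 at 12 h (3257 and 11), and 2598 to 5201 and 13 to 24 at 24 h (4472 and 22). From 6 to 12 h it gave 323 to 1547 and 2 to 13, and from 12 to 24 h 84 to 1650 and 2 to 10. With the replicate block, 24 members were called at 24 h against 22 without it, and no member call of any of the 5 comparisons was lost. The F-test called 26 members and 5982 probe sets with the block, against 21 and 5447 without it. Counts of probe sets rose with the block in all 5 comparisons. Samples of the same number deviated together only weakly. The correlations between times were 0.05 to 0.18, all positive, and 2 of 6 were over 0.1. The numbers were not taken as pairs. Whether they mark a shared batch is not known from the labels. Of 125 member changes not called, 26 were called in 1 or more alternatives.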
